A study of Homo sapiens with 16 samples.

Results

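The aldo-keto reductase genes AKR1A1, AKR1B1, AKR1B10, AKR1C1, AKR1C2 and AKR1C3 were followed by RNA sequencing in a lung and a breast cancer line. These 6 genes were picked by symbol, out of 20851 gene rows that appear in either of the deposited tables, and all 6 were listed in both. The study addressed the part that LCN2, the gene for the siderophore-binding protein lipocalin-2, plays in cancer cells that colonise the leptomeninges, the membranes around the brain. It used PC9, a lung adenocarcinoma line, and MDA231, a breast cancer line, with 4 groups of 2 libraries in each line and 16 libraries in all. Parental cells carried no hairpin. LeptoM cells, the leptomeningeal metastatic derivative of each line, carried a lentiviral control hairpin (shCTL), shLCN2_1 or shLCN2_2, the last 2 being directed against LCN2. Parental and shCTL cells therefore differed both in derivation and in carrying a hairpin vector, and these cannot be told apart. Whether the paired libraries of a group stem from independent cultures is not stated in the labels, and the spread on which the p-values rest may be technical.

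Aldo-keto reductases use NADPH to reduce aldehydes and ketones to alcohols. AKR1A1 is a broadly expressed aldehyde reductase, AKR1B1 is the aldose reductase that makes sorbitol from glucose, and AKR1B10 reduces retinal and lipid-derived aldehydes. The AKR1C enzymes are hydroxysteroid dehydrogenases: AKR1C1 inactivates progesterone, AKR1C2 inactivates dihydrotestosterone, and AKR1C3 makes testosterone and prostaglandin F from their keto precursors. AKR1B10 and the AKR1C genes are well-known targets of the antioxidant transcription factor NRF2 (gene NFE2L2) in lung cancer cells.

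The genes lie in 3 places (GRCh38, GENCODE annotation; the submitters' processing notes name hg19, whose coordinates were not used here). AKR1A1 (ENSG00000117448.9) is at chr1:45550543-45570049 on the plus strand. AKR1B1 (ENSG00000085662.9, chr7:134442350-134459284, minus strand) and AKR1B10 (ENSG00000198074.5, chr7:134527592-134541408, plus strand) are neighbours. AKR1C1 (ENSG00000187134.8, chr10:4963253-4983283, plus strand), AKR1C2 (ENSG00000151632.12, chr10:4987400-5018031, minus strand) and AKR1C3 (ENSG00000196139.7, chr10:5035354-5107686, plus strand) form a cluster.

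AKR1C1 and AKR1C2 are near-identical copies, which bears on every count given for them, while AKR1C3 is less alike. Over the 969 coding bases, AKR1C1 and AKR1C2 were 98.0% identical with 19 mismatches, AKR1C1 and AKR1C3 were 91.8% identical, and AKR1C2 and AKR1C3 were 91.2% identical. AKR1B1 and AKR1B10 were 76.1% identical. The 90 coding bases with the most differences among the AKR1C genes, bases 73 to 162 counted from the start codon, are shown because reads from such stretches are the ones that can be told apart. They hold 19 of the 91 coding positions at which the 3 genes are not all alike, and capitals mark these positions (GRCh38 transcripts, coding strand).
AKR1C1: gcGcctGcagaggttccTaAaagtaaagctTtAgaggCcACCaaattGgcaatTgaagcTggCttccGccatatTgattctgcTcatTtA
AKR1C2: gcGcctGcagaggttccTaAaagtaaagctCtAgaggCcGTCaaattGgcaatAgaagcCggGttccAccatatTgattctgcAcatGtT
AKR1C3: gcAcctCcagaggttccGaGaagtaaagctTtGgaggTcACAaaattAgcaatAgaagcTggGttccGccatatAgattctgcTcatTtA

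Of all 50-base windows in the transcripts of a gene, 28.3% of AKR1C1 windows also occurred in AKR1C2, and 38.1% of AKR1C2 windows also occurred in AKR1C1. For AKR1C3 the share found in any other gene was 4.53%, for AKR1B1 5.45% and for AKR1A1 1.61%. AKR1B10 shared 9.69% of its windows with AKR1B15 and 5.99% with the pseudogene AKR1B10P1. Levels of AKR1C1 and AKR1C2 are therefore uncertain where the counting dropped or split shared reads, and their sum with AKR1C3 is given beside them. In PC9, reads aligned to several places were listed apart from the genes. The sum does not bring back reads that were dropped.

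The promoters of the AKR1C genes resembled each other too. In RefSeq's GRCh38.p14 windows of 250 bases before the start site, AKR1C1 and AKR1C2 matched at 245 of 254 aligned positions (96.5%), and AKR1C1 matched the first AKR1C3 window at 70.7%. Entries were found for AKR1A1, AKR1B1, AKR1C1, AKR1C2 and AKR1C3. A CCAAT box (letters CCAAT, either strand) was found in the window of AKR1C1, in that of AKR1C2, in both AKR1C3 windows and in 1 of the 2 AKR1B1 windows, against 32.0% of 35116 promoters. The 30 bases around each box are shown to set the AKR1C stretches, which resemble each other, beside that of AKR1B1, with the box in capitals, read on the gene's own strand.
AKR1B1, chr7:134459181-134459210, minus strand: cccccagcgcaaCCAATcagaaggctcctt
AKR1C1, chr10:4963326-4963355, plus strand: ctctcacatgccATTGGttaaccagcagac
AKR1C2, chr10:5003921-5003950, minus strand: ctctcacatgccATTGGttaaccagcagac
AKR1C3, chr10:5048696-5048725, plus strand: cttttacatgctATTGGttaaccattaggc
AKR1C3, chr10:5094316-5094345, plus strand: ctcctacatgccATTGGttaaccatcagtc

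The AKR1C1 and AKR1C2 stretches are the same over all 30 bases. In the 4 AKR1C windows the box lay 68 to 81 bases before the RefSeq start and on the opposite strand to the AKR1B1 box, which lay 93 bases before it. The core of the NRF2 element, TGACNNNGC on either strand, was in none of the member windows and in 10.9% of all promoters, which says only that these letters are not in these 250 bases.

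Values are normalized read counts, that is, reads per gene over the library's size factor, and the 2 lines were normalized separately, so levels are compared within a line. Gene reads per library were 36796098 to 51759154 in PC9 and 41751486 to 49050069 in MDA231 LeptoM cells. Parental MDA231 libraries were shallower, at 11592790 and 11613984. In the PC9 parental replicate 2 library, reads aligned to several places numbered 42.4% as many as the gene reads, where the other 7 had 18.1 to 20.6%. The AKR1C genes made up the same shares of their sum in that library as in the other parental library (AKR1C1 18.2% there and 18.5% in the other), and leaving it out ended no call of AKR1B10 or an AKR1C gene described here for PC9. Differences are log2 fold changes of value + 1 with their standard error (SE) from limma, called at a Benjamini-Hochberg adjusted p under 0.05 over all genes tested.

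LCN2, the targeted gene, was measured at 21140 and 23248 in PC9 parental libraries, 51004 and 49615 with shCTL, 3575 and 7046 with shLCN2_1 and 21415 and 18861 with shLCN2_2. Both shLCN2_1 libraries of PC9 thus held less LCN2 than both shLCN2_2 libraries. In MDA231 LCN2 was low throughout, with 3 and 1 reads in the parental libraries, 27 and 18 with shCTL, 10 and 9 with shLCN2_1 and 6 and 7 with shLCN2_2. The labelled cell types were checked by markers: the 7 epithelial markers summed to 488866 to 889871 in PC9, and the 4 mesenchymal markers to 185728 to 236177 in MDA231. VIM gave most of the MDA231 sum (group means of 177912 to 224891), while CDH2 was scarce there (4.47 to 30.9). The mesenchymal list also summed to 120248 and 130564 in parental PC9 libraries, mostly through FN1. APOA1 and CYP3A4, markers of liver, a tissue rich in these enzymes, summed to at most 12.4 in MDA231.

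In PC9, the LeptoM cells held far more AKR1B10 and AKR1C1 RNA than the parental cells, and more AKR1C2, AKR1C3 and AKR1A1. With shLCN2_1, AKR1B10 and AKR1C1 stayed near the shCTL level, AKR1C2 lay above it, and the AKR1C3 libraries lay on either side of it. LCN2 was lowest in the shLCN2_1 libraries. With shLCN2_2, AKR1B10, AKR1C1 and AKR1C2 fell, and their libraries still lay above the parental ones. In MDA231, AKR1C1, AKR1C3 and AKR1B1 were higher in LeptoM cells, and AKR1C1 was higher, not lower, with shLCN2_2.

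**Figure D1:**
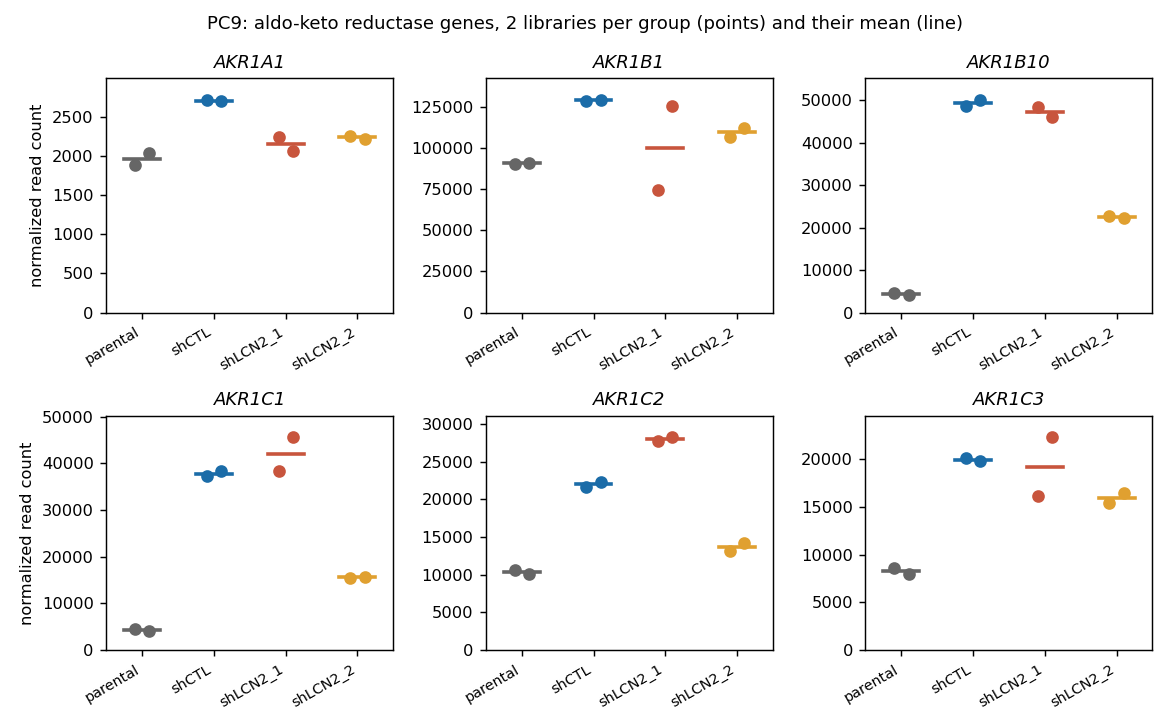
Normalized read count of the 6 genes in each PC9 library (points; vertical axis, linear from 0) by group (horizontal axis), with the mean of 2 libraries as a line. AKR1B10 and AKR1C1 go from 4004 to 4482 in parental cells to 37203 to 50130 with shCTL, stay there with shLCN2_1 and lie between 15311 and 22820 with shLCN2_2.

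AKR1B10, the retinal and lipid aldehyde reductase, was measured at 4482 and 4115 in PC9 parental libraries, 48546 and 50130 with shCTL, 48393 and 46052 with shLCN2_1, and 22820 and 22327 with shLCN2_2. The groups fall in 3 separate tiers, with parental lowest, shLCN2_2 in the middle, and shCTL with shLCN2_1 on top. AKR1B10 rose 11.5-fold in LeptoM shCTL cells (log2 3.52, SE 0.06, adjusted p = 4.84e-08, limma). With shLCN2_2 it fell by 1.13 on the log2 scale (SE 0.06, adjusted p = 0.000227), while its difference with shLCN2_1 was -0.06 (SE 0.06, adjusted p = 0.449). That last difference passed once each library's trend on GC content was removed (-0.20, adjusted p = 0.0205). The 2 hairpins differed from each other by 1.06 (SE 0.06, adjusted p = 5.36e-05), shLCN2_1 being higher.

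AKR1C1, the progesterone-inactivating enzyme, was at 4368 and 4004 in PC9 parental libraries, 37203 and 38249 with shCTL, 38338 and 45612 with shLCN2_1, and 15311 and 15711 with shLCN2_2. No shCTL or shLCN2_1 library overlapped a parental or shLCN2_2 library, and the shLCN2_2 libraries kept more than the parental ones. AKR1C1 rose 9.02-fold in LeptoM shCTL cells (log2 3.17, SE 0.09, adjusted p = 3.57e-07). It fell by 1.28 with shLCN2_2 (SE 0.09, adjusted p = 0.000503) and differed by 0.15 with shLCN2_1 (SE 0.09, adjusted p = 0.201), a difference that passed without the shLCN2_1 replicate 1 library (0.27, adjusted p = 0.00885) or with upper-quartile scaling (0.28, adjusted p = 0.0338).

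AKR1C2, which inactivates dihydrotestosterone, was at 10636 and 10070 in PC9 parental libraries, 21708 and 22286 with shCTL, 27799 and 28292 with shLCN2_1, and 13112 and 14262 with shLCN2_2. The 4 groups did not overlap, and shLCN2_1 was the highest of them. AKR1C2 rose by 1.09 in LeptoM shCTL cells (SE 0.06, adjusted p = 1.09e-05, 2.13-fold). It rose by a further 0.35 with shLCN2_1 (SE 0.06, adjusted p = 0.00274) and fell by 0.69 with shLCN2_2 (SE 0.06, adjusted p = 0.00111). The rise with shLCN2_1 was 0.11 and no longer passed once each library's trend on GC content was removed (adjusted p = 0.212).

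AKR1C3, the testosterone and prostaglandin F synthase, was at 8578 and 7971 in PC9 parental libraries, 20102 and 19832 with shCTL, 16156 and 22337 with shLCN2_1, and 15436 and 16431 with shLCN2_2. The shLCN2_1 libraries were on either side of shCTL and overlapped shLCN2_2. AKR1C3 rose by 1.27 in LeptoM shCTL cells (SE 0.13, adjusted p = 0.000171, 2.41-fold). Its differences of -0.07 with shLCN2_1 (SE 0.13, adjusted p = 0.686) and -0.33 with shLCN2_2 (SE 0.13, adjusted p = 0.12) did not pass. The spread in that fit is set in part by the shLCN2_1 pair: without shLCN2_1 replicate 1 the adjusted p with shLCN2_2 was 0.00255, and without replicate 2 it was 0.00258. The difference with shLCN2_1 was 0.16 without replicate 1 and -0.31 without replicate 2, which passed at an adjusted p of 0.00522.

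AKR1B1, aldose reductase, had the highest read counts per exon length of the members in PC9. It was measured at 90220 and 91159 in parental libraries, 128812 and 129350 with shCTL, 74179 and 125225 with shLCN2_1, and 106828 and 112132 with shLCN2_2. Each group pair was tight except shLCN2_1, whose libraries spanned the range from below the parental cells to just under shCTL. The LeptoM difference of 0.51 (SE 0.20, adjusted p = 0.0647) did not pass, although shCTL and parental libraries did not overlap. It passed when either shLCN2_1 library was left out (adjusted p = 5.02e-05 without replicate 1, 4.88e-05 without replicate 2), and in DESeq2 on the recovered reads (0.51, adjusted p = 0.0122), but not in edgeR on the same reads (0.49, adjusted p = 0.0839). The differences of -0.42 with shLCN2_1 (SE 0.20, adjusted p = 0.116) and -0.24 with shLCN2_2 (SE 0.20, adjusted p = 0.435) did not pass with all libraries. Without shLCN2_1 replicate 2 the former was -0.80 (adjusted p = 5.62e-05), and without either shLCN2_1 library the latter passed (adjusted p = 0.00676 without replicate 1, 0.00659 without replicate 2).

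AKR1A1, the broadly expressed aldehyde reductase, was at 1883 and 2043 in PC9 parental libraries, 2719 and 2696 with shCTL, 2238 and 2064 with shLCN2_1, and 2261 and 2212 with shLCN2_2. The shCTL libraries stood above the other 6, which lay close together. AKR1A1 rose by 0.46 in LeptoM shCTL cells (SE 0.07, adjusted p = 0.00143), and it fell by 0.33 with shLCN2_1 (SE 0.07, adjusted p = 0.00711) and by 0.28 with shLCN2_2 (SE 0.07, adjusted p = 0.0343). The calls of both falls were lost without either shCTL library, and the second was also lost without either shLCN2_2 library. Fewer of all genes were called in those fits as well. Over left-out libraries the differences were -0.39 to -0.27 with shLCN2_1 and -0.29 to -0.26 with shLCN2_2. With the GC trend removed, the difference with shLCN2_1 was 0.10 (adjusted p = 0.209).

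Counted over the members, 5 of 6 were higher and 0 were lower in PC9 LeptoM shCTL than in parental cells, in a comparison in which 45.6% of all genes tested were called, 23.8% higher and 21.8% lower. With shLCN2_1, 1 member was higher and 1 lower, where 44.2% of genes were called, 18.8% higher and 25.3% lower. With shLCN2_2, 4 members were lower and 0 higher, where 19.5% of genes were called, 9.81% higher and 9.7% lower. Between the hairpins, AKR1B10 (1.06), AKR1C1 (1.43, SE 0.09) and AKR1C2 (1.04, SE 0.06) were higher with shLCN2_1 than with shLCN2_2, each at an adjusted p of 5.36e-05, where 54.5% of genes were called, 25.6% higher and 28.9% lower. The first 3 of these comparisons share the shCTL libraries. PC9 mesenchymal markers moved across the same groups, summing to 120248 and 130564 in the parental libraries and to 16855 and 16984 with shCTL. The sum was 6177 and 24428 with shLCN2_1, and 22992 and 24112 with shLCN2_2. FN1 gave most of it, with means of 123968 in parental and 16673 in shCTL cells. VIM and CDH2 were lower with shCTL as well, while ZEB1 was scarce and did not fall (means of 12.3 and 25.8). The epithelial sum was lowest with shLCN2_1, at 488866 and 492201, against 813722 to 889871 in the other LeptoM libraries. Not all epithelial markers followed the sum: with shLCN2_1 against shCTL, 5 of 7 were lower and 2 higher. The mean of CDH1 went from 20207 with shCTL to 25537 with shLCN2_1, and that of EPCAM from 15954 to 18383. Whether these shifts had a part in the members' differences was not tested.

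Per kilobase of exon, the PC9 shCTL means were 91612 for AKR1B1, 31030 for AKR1B10, 8950 for AKR1C3, 5331 for AKR1C1, 5109 for AKR1C2 and 1135 for AKR1A1. Per kilobase of coding sequence they were 136161 for AKR1B1, 52045 for AKR1B10, 38933 for AKR1C1, 22701 for AKR1C2, 20606 for AKR1C3 and 2777 for AKR1A1. AKR1B1 and AKR1B10 come first and AKR1A1 last on either scale, while the order among the AKR1C genes depends on the length used. Together the 6 genes took 0.272% of gene reads in parental PC9 cells and 0.601% with shCTL. Their share was 0.589% with shLCN2_1 and 0.432% with shLCN2_2, so it stayed above the parental share in every LeptoM group.

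**Figure D2:**
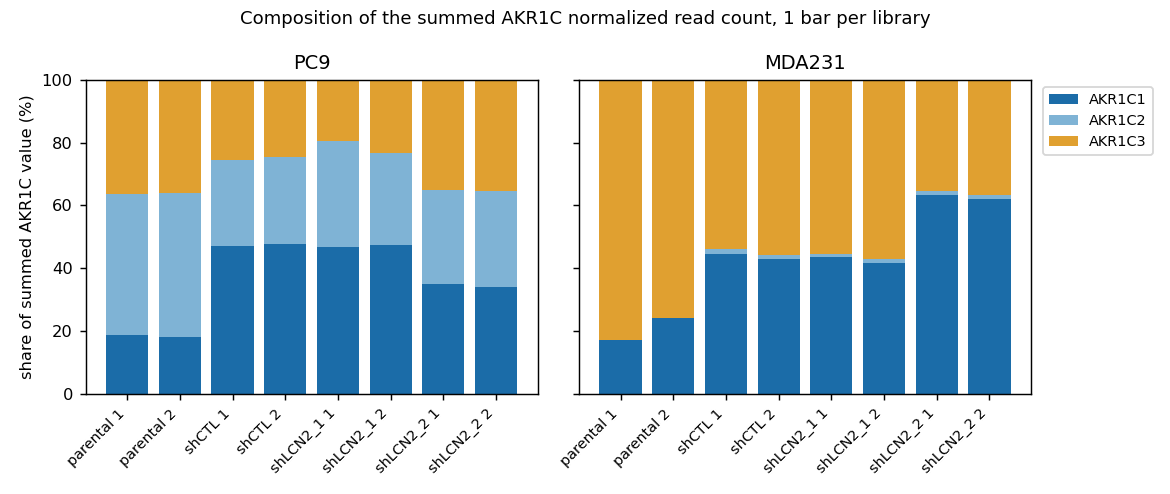
Share (%) of AKR1C1, AKR1C2 and AKR1C3 in their summed normalized read count, 1 bar per library, for PC9 (left) and MDA231 (right). AKR1C1 makes up 18.2 and 18.5% in PC9 parental libraries and 46.6 to 47.6% with shCTL or shLCN2_1, and AKR1C2 stays under 2% in MDA231.

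The make-up of the AKR1C sum changed with it. In PC9 parental cells AKR1C2 gave 45.4% ± 0.41 (SD, n = 2) of the summed value, AKR1C3 36.3% ± 0.15 and AKR1C1 18.3% ± 0.25. With shCTL, AKR1C1 gave 47.3% ± 0.36, AKR1C2 27.6% ± 0.18 and AKR1C3 25.1% ± 0.54. With shLCN2_2 the AKR1C1 share was 34.4% ± 0.74 and the AKR1C3 share 35.3% ± 0.15, so the AKR1C1 share with shLCN2_2 lay between the parental and shCTL shares. These shares are of read counts, not per length, and follow each gene across groups. The sum itself rose by 1.81 in LeptoM shCTL cells (SE 0.08, adjusted p = 3.48e-06). Any reads split between AKR1C1, AKR1C2 and AKR1C3 matter less in it, while reads that were dropped stay missing. The sum fell by 0.82 with shLCN2_2 (adjusted p = 0.00134) and differed by 0.16 with shLCN2_1 (adjusted p = 0.155).

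**Figure D3:**
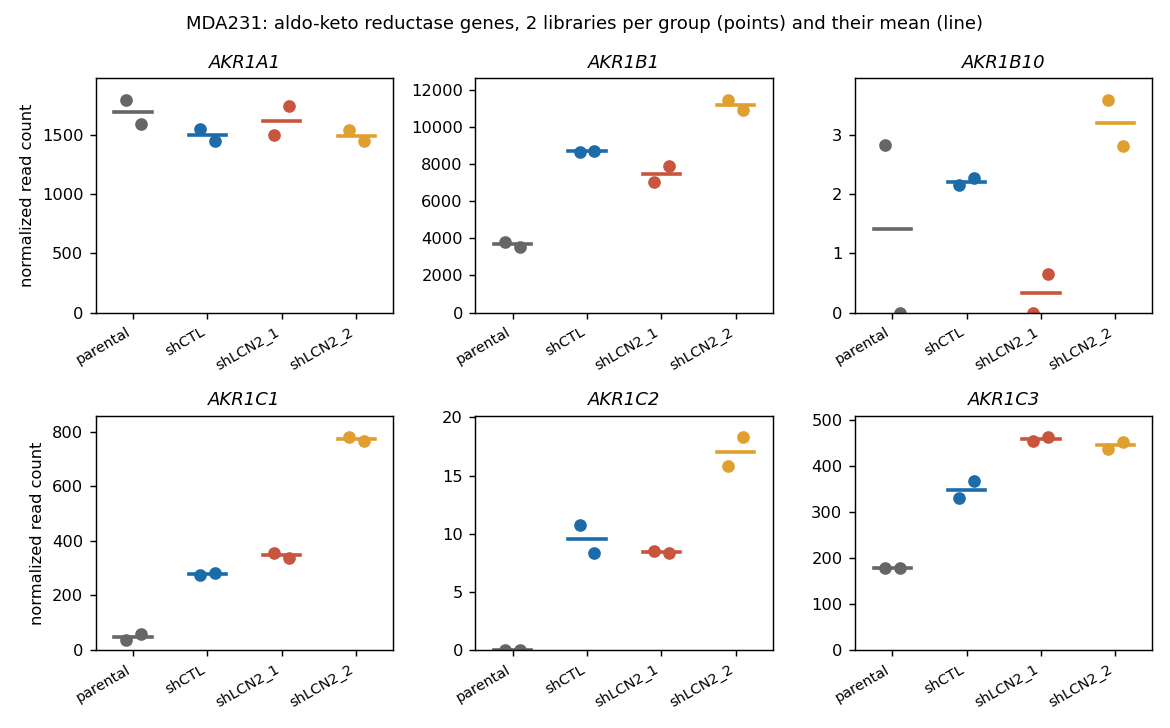
Normalized read count of the 6 genes in each MDA231 library (points; vertical axis, linear from 0) by group (horizontal axis), with the mean of 2 libraries as a line. AKR1C1 goes from 36.9 and 56.6 in parental cells to 780 and 765 with shLCN2_2, and AKR1B10 stays under 4 in every library.

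In MDA231, AKR1C1 was at 36.9 and 56.6 in the parental libraries, 273 and 281 with shCTL, 355 and 337 with shLCN2_1, and 780 and 765 with shLCN2_2. The 4 groups lie in that ascending order with no overlap. AKR1C1 rose by 2.57 in LeptoM shCTL cells (SE 0.20, adjusted p = 0.00017, 5.96-fold), resting on 13 and 19 reads in the parental libraries. With shLCN2_2 it rose by a further 1.47 (SE 0.20, adjusted p = 0.0373), and with shLCN2_1 it differed by 0.32 (SE 0.20, adjusted p = 0.516). The rise with shLCN2_2 kept its size (1.45 to 1.50) but not its call when any of the 6 LeptoM libraries was left out. Nearly all calls of other genes were lost in those fits too, so the loss is not particular to AKR1C1. In edgeR and DESeq2 on the recovered reads the rise passed (adjusted p = 0.00817 and 1.71e-14).

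AKR1C3 was at 179 in each MDA231 parental library, 331 and 366 with shCTL, 454 and 463 with shLCN2_1, and 437 and 452 with shLCN2_2. Parental libraries were lowest and both LCN2 hairpins lay above shCTL. It rose by 0.96 in LeptoM shCTL cells (SE 0.11, adjusted p = 0.000755, 1.94-fold), and its differences of 0.40 with shLCN2_1 (adjusted p = 0.192) and 0.35 with shLCN2_2 (adjusted p = 0.26) did not pass. AKR1B1 was at 3812 and 3545 in parental libraries, 8677 and 8706 with shCTL, 7025 and 7886 with shLCN2_1, and 11480 and 10898 with shLCN2_2. Its groups did not overlap, and shLCN2_1 and shLCN2_2 lay on opposite sides of shCTL. AKR1B1 rose by 1.24 in LeptoM shCTL cells (SE 0.08, adjusted p = 0.000102), and differed by -0.22 with shLCN2_1 (adjusted p = 0.307) and by 0.36 with shLCN2_2 (adjusted p = 0.154).

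AKR1A1 was at 1795 and 1588 in MDA231 parental libraries, 1548 and 1449 with shCTL, 1497 and 1740 with shLCN2_1, and 1542 and 1443 with shLCN2_2. All LeptoM groups overlapped, and its LeptoM difference of -0.17 (SE 0.11, adjusted p = 0.233) did not pass. Removing the GC trend made it -0.59, which passed (adjusted p = 0.00047), and upper-quartile scaling made it 0.060 (adjusted p = 0.676). AKR1C2, an abundant transcript in PC9, had 0 reads in both MDA231 parental libraries, 15 and 11 with shCTL, 13 and 13 with shLCN2_1, and 22 and 26 with shLCN2_2. Against the value that 3 reads would have in each parental library, its mean was at least 1.09-fold higher with shCTL and at least 1.96-fold higher with shLCN2_2, and with shLCN2_1 it lay under that value. AKR1B10 had 0 to 5 reads in any MDA231 library (1 and 0 in parental, 3 and 3 with shCTL, 0 and 1 with shLCN2_1, 5 and 4 with shLCN2_2), at or near the limit of 3 reads. AKR1B10 and AKR1C2 lay under the minimum mean of 10 in MDA231 and were not tested there.

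Of the 4 members tested in MDA231, 3 were higher and 0 lower in LeptoM shCTL than in parental cells, where 48.7% of genes tested were called, 24.8% higher and 23.8% lower. With shLCN2_1, limma called 0 of 4, where 0.841% of genes were called, 0.389% higher and 0.452% lower. AKR1B1 and AKR1C3 were under an unadjusted p of 0.05 there, and edgeR and DESeq2 called 0 as well. With shLCN2_2, AKR1C1 was called, where 0.521% of genes were called, 0.139% higher and 0.382% lower. Between the hairpins, AKR1B1 (-0.59, SE 0.08, adjusted p = 0.0203) and AKR1C1 (-1.16, SE 0.20, adjusted p = 0.0343) were lower with shLCN2_1 than with shLCN2_2, where 2.69% of genes were called, 1.52% higher and 1.17% lower. Leaving out any of the 6 LeptoM libraries ended both of these calls. Most calls of other genes were lost in those fits too, so the loss is not particular to these genes. Over left-out libraries the effects were -0.67 to -0.50 for AKR1B1 and -1.19 to -1.12 for AKR1C1. The AKR1C sum rose by 1.49 in LeptoM shCTL cells (SE 0.10, adjusted p = 9.37e-05) and by 0.96 with shLCN2_2 (SE 0.10, adjusted p = 0.0229). Over both lines the sum had 6 calls, of which 4 were left without any 1 of the MDA231 LeptoM libraries. In parental cells 79.4% ± 4.9 (SD, n = 2) of that sum was AKR1C3, and with shLCN2_2 62.6% ± 0.97 was AKR1C1.

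**Figure D4:**
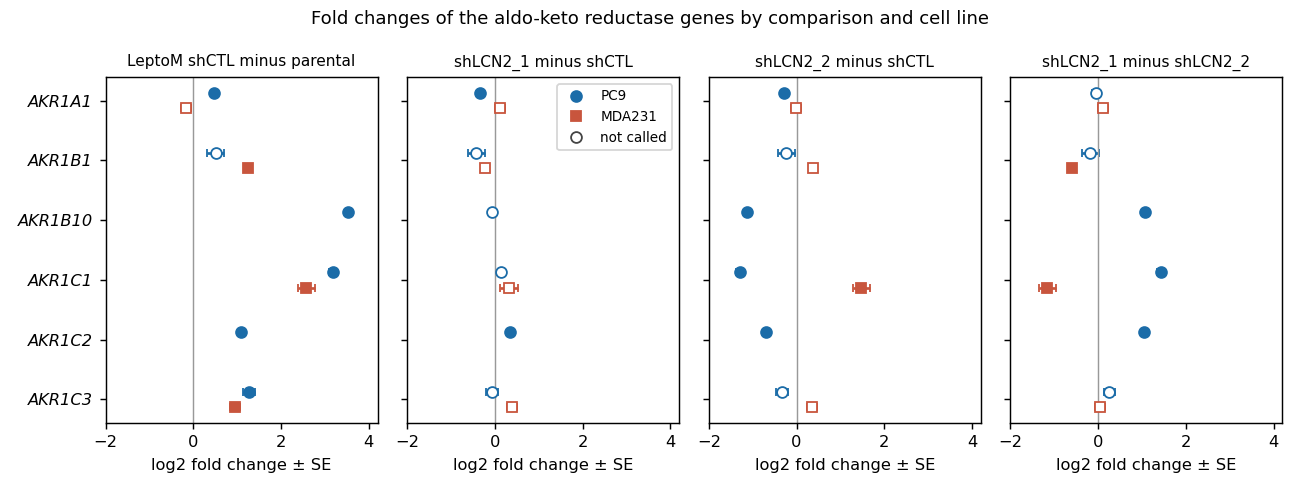
Log2 fold change ± SE (horizontal axis) of each gene (rows) in 4 comparisons (panels) for PC9 (blue circles) and MDA231 (red squares); open symbols did not pass, AKR1B10 and AKR1C2 were not tested in MDA231, and error bars shorter than a symbol are hidden. In the shLCN2_2 panel AKR1C1 lies at -1.28 in PC9 and at 1.47 in MDA231.

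The lines were compared by testing the difference between their fold changes, for the 4 members tested in both. For LeptoM shCTL against parental cells 3 of 4 differed, where 47.3% of genes did: AKR1A1 by 0.64 (PC9 minus MDA231, adjusted p = 0.0011), AKR1C1 by 0.60 (adjusted p = 0.0335) and AKR1B1 by -0.73 (adjusted p = 0.0106). AKR1C3 differed by 0.31 (SE 0.17, adjusted p = 0.149), which did not pass. With shLCN2_2, 2 of 4 differed, where 6.88% of genes did. AKR1C1 moved in opposite directions, for a difference of -2.76 (SE 0.22, adjusted p = 7.71e-06), and AKR1C3 differed by -0.68 (SE 0.17, adjusted p = 0.0282). With shLCN2_1, AKR1A1 (-0.44, adjusted p = 0.0185) and AKR1C3 (-0.47, adjusted p = 0.0431) differed, where 40.2% of genes did. The AKR1C3 and AKR1A1 differences with shLCN2_1 were both lost with upper-quartile scaling (adjusted p = 0.122 and 0.0672), and the AKR1C1 difference between LeptoM effects was lost there too (0.43, adjusted p = 0.111). The AKR1C1 difference was also lost without any MDA231 library other than parental replicate 1, and without PC9 parental or shCTL replicate 2 (adjusted p = 0.0517 to 0.133), and was 0.30 without MDA231 parental replicate 2. The AKR1C3 difference with shLCN2_2 was lost without any shCTL or shLCN2_2 library of either line (adjusted p = 0.0741 to 0.144). Its difference with shLCN2_1 was lost with TMM scaling (adjusted p = 0.0506) and without any library other than the MDA231 parental pair and PC9 shLCN2_1 replicate 2 (adjusted p = 0.0519 to 0.156). The AKR1A1 difference with shLCN2_1 was lost without MDA231 shCTL replicate 2 or shLCN2_1 replicate 2 (adjusted p = 0.125 and 0.137). AKR1B1 with shLCN2_2 gained a difference of -0.60 without either PC9 shLCN2_1 library (adjusted p = 0.000943 and 0.000947).

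Across the 8 PC9 libraries, log2 levels of AKR1B10 and AKR1C1 had a Pearson correlation of 0.991, AKR1B10 and AKR1C3 of 0.966, and AKR1C1 and AKR1C2 of 0.948. AKR1B1 had correlations of 0.26 to 0.63 with the other members. AKR1C1 and AKR1C3 had one of 0.961. In MDA231 the correlations of AKR1C1 were 0.975 with AKR1C2, 0.963 with AKR1B1 and 0.945 with AKR1C3, the first resting on 0 to 26 AKR1C2 reads a library. These describe 8 libraries in 4 groups and share the groups and the scaling.

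Genes whose log2 pattern over the 8 libraries was most like each member's were ranked by Pearson correlation among genes of wide range, 3918 in PC9 and 3391 in MDA231. For AKR1B10 in PC9 they were RPL7AP6, a ribosomal protein pseudogene (0.992), EMP1 (0.992) and CYP4F3, a leukotriene hydroxylase (0.990). For AKR1C1 they were RPL7AP6 (0.995), TXN, thioredoxin (0.986), and BMPR1B (0.986), and for AKR1C2 they were PTGR1, a prostaglandin and alkenal reductase (0.991), NPR3 (0.985) and TXN (0.984). AKR1C3 was most like KITLG (0.984), LYRM5 (0.984) and RGS2 (0.980). In MDA231, AKR1C1 was most like BFSP1 (0.996), PTGS2, the inducible cyclooxygenase (0.992), and ANO3 (0.988), AKR1B1 like NRG1 (0.996), and AKR1C3 like TNFSF9 (0.996).

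**Figure D5:**
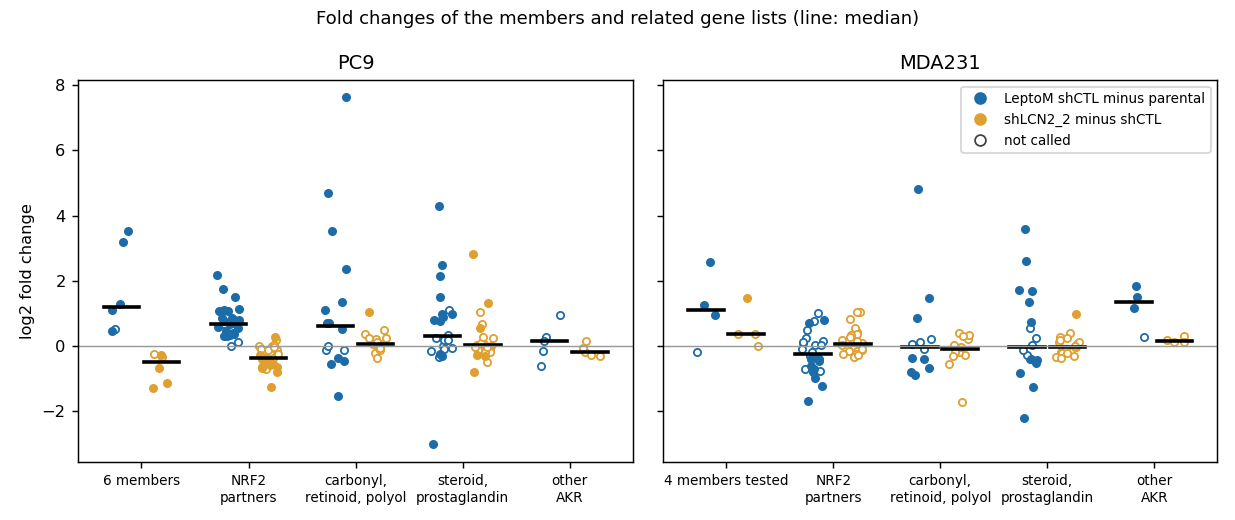
Log2 fold change (vertical axis) of the members and of genes in 4 related lists (horizontal axis) in PC9 and MDA231, for LeptoM shCTL minus parental (blue) and shLCN2_2 minus shCTL (orange); open points did not pass and lines are medians. In PC9 the NRF2 partner genes have a median of 0.69 in LeptoM cells and -0.37 with shLCN2_2, and in MDA231 their LeptoM median is -0.24.

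NRF2 partner genes, a list of 27 that leaves out the members, were described over the same comparisons. In LeptoM shCTL cells 22 of 27 rose and 0 fell (81.5%, against 45.6% of all genes), with a median of 0.69 against 0.01 over all genes. They included the glutathione peroxidase GPX2 (2.17), the epoxide hydrolase EPHX1 (1.75), OSGIN1 (1.51) and the carbonyl reductase CBR3 (1.12). With shLCN2_2, 12 of 27 fell and 1 rose (48.1%, against 19.5%), with a median of -0.37 against 0.00. The cystine transporter SLC7A11 fell by 1.25, OSGIN1 fell by 0.81, UGDH fell by 0.67 and the glutathione synthesis gene GCLM fell by 0.64. The gene that rose was GCLC, by 0.29, the partner of GCLM in the same enzyme. With shLCN2_1, 5 rose and 10 fell (55.6%, against 44.2%, median -0.05), the latter including SRXN1 (-2.20), OSGIN1 (-1.93) and TKT (-0.87). AKR1B10 and AKR1C1 did not pass in that comparison. Removing the GC trend there left 3907 of all genes called in place of 6910. The gene lists and marker sums are given without that removal.

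TXN and PTGR1 were picked for their likeness to AKR1C2 over these libraries, so their order across the groups is a description. TXN means in parental, shCTL, shLCN2_1 and shLCN2_2 cells were 15043, 32207, 34734 and 21248, and PTGR1 means were 10591, 30002, 37904 and 17139 in the same order. NFE2L2 itself, singled out after its values were seen, had means of 5007, 6255, 7615 and 4239. It rose by 0.32 in LeptoM shCTL cells (adjusted p = 0.0035) and by 0.28 with shLCN2_1 (adjusted p = 0.00625), and fell by 0.56 with shLCN2_2 (adjusted p = 0.00159).

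In MDA231 LeptoM shCTL cells, in which AKR1C1 rose, 2 of 26 NRF2 partners rose and 10 fell (46.2%, against 48.7% of all genes), with a median of -0.24 against 0.04 over all genes. The quinone reductase NQO1 fell by 1.68, TXN fell by 1.23 and TXNRD1 fell by 0.99, while UGDH rose by 0.80. NFE2L2 fell by 0.60 there (adjusted p = 0.00333). NQO1 fell by 1.00 with shLCN2_1 (adjusted p = 0.00493), a call that did not hold without either shCTL library or without shLCN2_1 replicate 1. Calls of all other genes were lost in those fits too, so the loss is not particular to NQO1.

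Among genes of carbonyl, retinoid and polyol metabolism, the wider pathway of AKR1B1 and AKR1B10, 9 of 16 rose and 4 fell in PC9 LeptoM shCTL cells (81.2%, against 45.6% of all genes), with a median of 0.61 against 0.01 over all genes. The aldehyde dehydrogenase ALDH3A1 rose by 7.63, from a mean of 96.8 to 19258, ALDH1A1 by 4.69 and the retinol dehydrogenase DHRS9 by 3.54. With shLCN2_2, 1 of 16 was called (6.25%, against 19.5%), ALDH2 at 1.04. With shLCN2_1, 5 rose and 5 fell (62.5%, against 44.2%), including ALDH2 (2.03) and ALDH3A1 (-1.12). In MDA231 LeptoM shCTL cells 3 of 12 rose and 5 fell (66.7%, against 48.7%), where ALDH3B1 rose by 1.47 and the glyoxalase GLO1 fell by 0.90. The retinal reductase DHRS3, called there too, had 0 parental reads and a mean of 26.9 with shCTL, at least 3.08-fold above the value of 3 reads in each parental library.

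Steroid and prostaglandin genes, the setting of the AKR1C enzymes, moved both ways. In PC9 LeptoM shCTL cells 9 of 22 rose and 3 fell (54.5%, against 45.6% of all genes), with a median of 0.30. These held the cyclooxygenase PTGS1 at 4.30, the prostaglandin dehydrogenase HPGD at 2.48, the prostaglandin E synthase PTGES at 2.14 and the prostaglandin transporter SLCO2A1 at -3.02. With shLCN2_2, 3 rose and 3 fell (27.3%, against 19.5%), where SLCO2A1 rose by 2.81, HPGD rose by 1.32 and PTGR1 fell by 0.81. With shLCN2_1, 5 rose and 7 fell (54.5%, against 44.2%), among them PTGES (-1.98) and the steroid sulfotransferase SULT2B1 (-1.83). In MDA231 LeptoM shCTL cells 6 of 18 rose and 6 fell (66.7%, against 48.7%), where PTGR1 fell by 2.21 and HPGD rose by 1.71. PTGS2 rose by 0.98 with shLCN2_2 in MDA231 (adjusted p = 0.0231), in the same libraries in which AKR1C1 was highest. PTGS2 was also among the genes ranked most like AKR1C1 over these libraries, so their shared order is a description. The PTGS2 call did not hold when a shCTL or shLCN2_2 library was left out. Calls of all other genes were lost in those fits too, so the loss is not particular to PTGS2.

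Of 12 other aldo-keto reductases considered, 5 were abundant enough to test in PC9, and in LeptoM shCTL cells their adjusted p values were 0.0522 to 0.518. AKR1B15, the neighbour that shares windows with AKR1B10, had means of 128, 155, 88.2 and 137 in parental, shCTL, shLCN2_1 and shLCN2_2 cells and passed in no PC9 comparison. With shLCN2_1, 3 of the 5 tested in PC9 fell (60%, against 44.2% of all genes called). They were the aflatoxin aldehyde reductase AKR7A2 (-0.49) and the potassium channel subunits KCNAB2 (-0.78) and KCNAB3 (-0.85). In MDA231 LeptoM shCTL cells, 3 of the 4 tested rose (75%, against 48.7% of all genes called). KCNAB3 rose by 1.83, KCNAB2 by 1.50 and AKR7A2 by 1.16, where AKR1E2 differed by 0.29 (adjusted p = 0.186).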

How the data were processed

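The members and gene lists were chosen with earlier results of these data known. RNA was selected for polyadenylated transcripts and libraries were made with a stranded kit, per the labels' protocols. The authors deposited, for each line, a signal per gene: reads divided by a library size factor. The submitters' processing notes name HTSeq 0.5.3, DESeq2 1.22.1 and hg19; the aligner, annotation and strand setting are not given in the sources used here. All values (155632 in PC9, 143632 in MDA231) lay within 0.001 of whole reads (100%), and 4 PC9 lines that name no gene were left out.

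Genes with a mean of at least 10 were tested (15650 in PC9, 14387 in MDA231) as log2(value + 1) with limma 3.58.1 (trended prior, two-sided, 4 residual and 4.12 or 3.04 prior degrees of freedom), 1 fit of 4 groups per line. The pseudocount understates changes of low genes. Line differences used both effects and their SEs (13392 genes). Alternatives were edgeR 4.0.16 and DESeq2 1.42.0 on recovered reads, other scalings, filters, pseudocounts, thinning, GC trend removal, a replicate block and leaving out libraries. Scripts were tested on simulated data. Replicate pairs differed by more than sampling noise (chi-square per degree of freedom 2.94 to 39.9). PCR copies are not independent molecules, so floors of 3 reads cover counting error alone. Named genes are the members, the 3 genes most like each, and up to 4 called genes per list by fold size. A gene that meets this rule is not reported here.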

Additional observations from a re-analysis of the deposited data

Results flagged for a closer look

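For the 4 members tested in both lines, 7 fold changes differed by a test of the difference itself (PC9 minus MDA231, Benjamini-Hochberg adjusted). For LeptoM shCTL against parental cells these were AKR1A1 (0.64), AKR1B1 (-0.73) and AKR1C1 (0.60), where 47.3% of all genes differed. For shLCN2_1 against shCTL they were AKR1A1 (-0.44) and AKR1C3 (-0.47), where 40.2% of all genes differed. For shLCN2_2 against shCTL they were AKR1C1 (-2.76) and AKR1C3 (-0.68), where 6.88% of all genes differed. Lost in settings given above were AKR1C1 for LeptoM cells, AKR1A1 and AKR1C3 with shLCN2_1, and AKR1C3 with shLCN2_2. AKR1C1 with shLCN2_2 is the case in which both lines passed in opposite directions, -1.28 in PC9 and 1.47 in MDA231.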

How the results depend on the processing

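In PC9, the LeptoM calls of AKR1B10, AKR1C1, AKR1C2, AKR1C3 and AKR1A1, and the shLCN2_2 and between-hairpin calls of AKR1B10, AKR1C1 and AKR1C2, kept direction and side of the threshold under all 19 alternatives. In MDA231 so did the LeptoM calls of AKR1B1, AKR1C1 and AKR1C3. Parental depth in MDA231 limits AKR1C2 and AKR1B10, which have 0 or 1 reads there. With upper-quartile scaling the all-gene median went from 0.03 to 0.16 (PC9, shLCN2_1 minus shCTL), from 0.02 to 0.13 (PC9, between hairpins) and from 0.04 to 0.28 (MDA231, LeptoM minus parental). Where no value is named below, the cause was not tested.

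Counts of members called moved as follows. With the GC trend removed they were 1 in place of 2 (PC9 shLCN2_1), 2 in place of 0 (MDA231 shLCN2_1) and 3 in place of 1 (MDA231 shLCN2_2), the last 2 gaining AKR1B1 and AKR1C3. They were also 4 in place of 3 for MDA231 LeptoM and for PC9 between hairpins, each gaining AKR1A1. Calls over all genes moved as well, from 6910 to 3907 (PC9 shLCN2_1), 121 to 1329 (MDA231 shLCN2_1) and 75 to 1053 (MDA231 shLCN2_2). They went from 7001 to 8809 for MDA231 LeptoM and from 8529 to 5325 for PC9 between hairpins. The labels do not say that replicate numbers pair libraries, and correlations of deviations were -0.024 to 0.083 in PC9. In MDA231 they were 0.364 to 0.445 among parental, shCTL and shLCN2_2 but -0.589 to -0.408 for shLCN2_1 with these. With a replicate block the counts were 6 in place of 5 (PC9 LeptoM, AKR1B1 at an adjusted p of 0.0499), 3 in place of 4 (PC9 shLCN2_2, AKR1A1 at 0.0547), 0 in place of 1 (MDA231 shLCN2_2), 1 in place of 2 (MDA231 between hairpins) and 1 in place of 2 (difference between lines, shLCN2_1). That last count was 1 with TMM and 0 with upper-quartile scaling. The block also took calls over all genes from 75 to 1 (MDA231 shLCN2_2) and from 387 to 178 (MDA231 between hairpins). Without a filter on low values 5 members differed between lines for LeptoM cells, since more genes were tested. Leaving out libraries in turn gave 5 to 6 (PC9 LeptoM), 1 to 4 (PC9 shLCN2_1), 3 to 6 (PC9 shLCN2_2), 3 to 5 (PC9 between hairpins), 0 to 1 (MDA231 shLCN2_2), 0 to 2 (MDA231 between hairpins), 2 to 4 (lines, LeptoM), 0 to 3 (lines, shLCN2_1) and 1 to 3 (lines, shLCN2_2). Within each line, calls over all genes moved widely in those fits too, so these ranges are not particular to the members. Upper-quartile scaling, DESeq2, no filter and fits of only the groups compared moved other counts by at most 2.

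Of values that had passed, 1 turned its sign, AKR1A1 with shLCN2_1 in PC9 (-0.33), which was 0.10 with the GC trend removed. The other turns were of values that had not passed, up to 0.25 in size (AKR1C3 between hairpins in PC9). For shLCN2_1 minus shCTL in PC9, AKR1B10 was 0.065 and AKR1C3 0.057 with upper-quartile scaling, AKR1C3 was 0.0082 in edgeR and ranged from -0.31 to 0.16 over left-out libraries (0.16 without shLCN2_1 replicate 1), and AKR1C1 was -0.081 with the GC trend removed. Between hairpins in PC9, AKR1A1 was 0.053 with upper-quartile scaling, -0.12 to 0.0014 over left-out libraries (highest without shLCN2_1 replicate 2) and 0.44 with the GC trend removed (adjusted p = 0.000995). There AKR1B1 was -0.56 to 0.19 over left-out libraries (highest without shLCN2_1 replicate 1, adjusted p = 0.023) and 0.0067 with the GC trend removed, and AKR1C3 was -0.041 with it removed. MDA231 AKR1A1 was 0.060 (LeptoM) and 0.0050 (shLCN2_2) with upper-quartile scaling. For shLCN2_1 it was -0.00065 to 0.22 over left-out libraries (lowest without shLCN2_1 replicate 2) and -0.077 with the GC trend removed. For shLCN2_2 it was -0.054 to 0.042 over left-out libraries (above 0 without shCTL replicate 1 or shLCN2_2 replicate 2), 0.012 in edgeR and 0.024 with thinned reads. The AKR1B1 difference between lines for shLCN2_1 was -0.58 to 0.18 over left-out libraries (highest without PC9 shLCN2_1 replicate 1).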
